A study of Mus musculus with 18 samples.

Results

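Collagen chain genes encode the polypeptides that assemble, 3 at a time, into the collagen triple helix. They were followed across the stages of colitis-associated carcinogenesis in the mouse colorectum. The members were all genes whose symbol consists of Col, a number, the letter a and a number. On the array 42 such genes, with 82 probe sets, had at least 1 probe set annotated to that gene alone, of 18193 genes in all and of 44 such symbols in the gene table; Col6a6 and Col28a1 had none. Each gene was read from its probe set with the highest mean log2(signal + 16), the scale used throughout. Of the 42 genes, 11 are fibrillar, 9 belong to basement membranes and 22 to other classes.

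All mice were male ICR mice, an outbred stock, aged 6 weeks at the start. The stages came from animals that received the carcinogen azoxymethane (AOM) once, 10 mg/kg by intraperitoneal injection on day 1. Dextran sulphate sodium (DSS), a chemical that damages the lining of the colon, was then put in their water for up to 3 cycles, at 2% (days 8 to 14), at 1.5% (days 29 to 33) and again at 1.5% (days 50 to 54). Inflamed mucosa was taken on day 14, as the first cycle ended. Low grade dysplasia (LGD) followed on day 28, before the second cycle. High grade dysplasia (HGD) was taken on day 42, after it, and a further HGD group, with active inflammation, on day 56, after the third cycle. The last group was carcinoma, on day 140, and each group had 3 arrays. Normal mucosa came from mice given saline and water and was collected on day 14 alone, so later stages and older age cannot be told apart. Stage was assigned under the microscope, and the labels call the arrays biological replicates without saying how much muscle or submucosa each piece held.

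Fibrillar collagens (types I, III, V and others) form the tensile fibrils of the lamina propria and submucosa and are made mainly by fibroblasts. Type IV collagen is the network of every basement membrane, and types XV and XVIII lie at the outer face of that sheet; the end fragment of type XVIII is endostatin. Of the other classes, type VI forms beaded filaments around cells, FACIT collagens sit on fibril surfaces, and the transmembrane collagens are cell surface proteins.

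A gene was tested when its signal lay above the median of the table, 56.6, on at least 3 of the 18 arrays. That left 28 of the 42 collagens, namely 7 of 11 fibrillar, 6 of 9 basement membrane and 15 of 22 other genes. The 14 left out were Col2a1, Col4a3, Col4a4, Col4a6, Col6a5, Col8a2, Col9a2, Col10a1, Col11a1, Col11a2, Col19a1, Col22a1, Col24a1 and Col26a1, among them the cartilage collagens of types II, X and XI. A gene that passed through 1 group alone can owe its place to a high level there, so counts below refer to the 28 tested genes and not to all collagens. Array medians ran from 55.7 to 57.8 signal units, and the arrays of a group correlated with each other at 0.945 to 0.992.

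Some arrays stood apart from their group. On inflamed replicate 2 the summed signal of 12 epithelial markers (among them Epcam, Cdh1 and Krt8) was 1273, against 31032 and 12276 on the other inflamed arrays. In normal mucosa the same sum was 64341 to 69325. LGD replicate 3 had the lowest signal of its group for 20 of the 28 collagens, and the median SD of a collagen was 0.52 in LGD, the highest of the groups, against 0.13 in normal mucosa. LGD replicate 2 had a Gapdh 3′ to 5′ log2 ratio of 1.63, where the other 17 arrays lay between -0.08 and 0.16. HGD replicate 2 at 6 weeks had the lowest signal of its group for 21 of 28 collagens. What part these differences play in the results was not tested, and values without the arrays concerned are given where they change a count.

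Over the 6 groups, 21 of the 28 collagens differed by limma's moderated F test, where 45.3% of all 12868 tested genes did. All 7 fibrillar and all 6 tested basement membrane genes passed, and 8 of the 15 others did. Inflamed mucosa held the highest group mean for 22 of the 28 genes. The lowest mean fell in HGD at 6 weeks for 13 genes and in normal mucosa for 10.

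**Figure D1:**
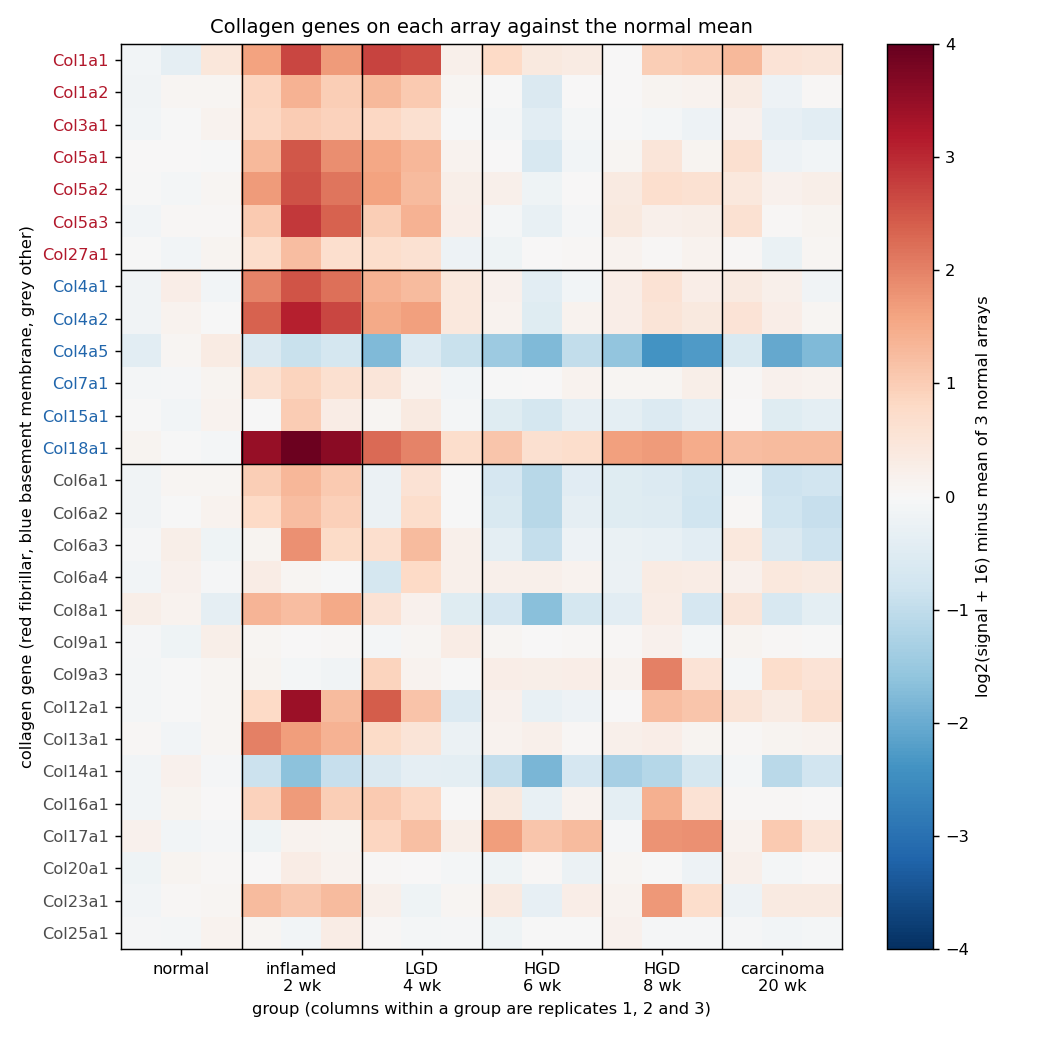
Each row is 1 of the 28 tested collagen genes and each column 1 of the 18 arrays; colour gives log2(signal + 16) minus the mean of the 3 normal arrays. The inflamed columns are red for most genes, LGD replicates 1 and 2 are paler, Col4a5 is blue on every array from inflamed mucosa onward, and Col14a1 on most of them.

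The comparison of inflamed with normal mucosa asks what the carcinogen and the first DSS cycle changed. Collagens of all 3 classes rose: 18 of 28 were higher and 1, Col14a1, was lower. In the background, 22.5% of all tested genes were higher and 24.3% lower. The median log2 change was 1.04 over the 28 collagens and 0.01 over all genes. By class the medians were 1.88 for the fibrillar genes (7 of 7 higher), 1.47 for the basement membrane genes (4 of 6 higher) and 0.89 for the others (7 higher and 1 lower of 15).

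Among fibrillar genes, Col1a1 encodes the chain that contributes most strands to type I collagen. Its signal was 1814, 3877 and 1962 in inflamed mucosa, against 551, 457 and 813 in normal mucosa. The groups did not overlap, and the log2 change was 2.00 ± 0.54 (SE, adjusted p = 0.0073). Its partner Col1a2 read 9149.7, 13425 and 10087 in inflamed mucosa, against 4562, 5320.1 and 5356 in normal mucosa, a change of 1.08 ± 0.26 (adjusted p = 0.0031). Col3a1, the sole chain of type III collagen, read 16499, 18761 and 17299 in inflamed mucosa, against 8507, 9043 and 10084 in normal mucosa. Every inflamed array lay above every normal array for both, and Col3a1 changed by 0.93 ± 0.19 (adjusted p = 0.0010).

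The sizes for types I, III and V depended on the probe set. The sets used for Col1a2 and Col3a1 bear the _a suffix, which marks sets that match several transcripts of 1 gene. On sets without a suffix Col1a2 changed by 1.86 and Col3a1 by 1.87. A further Col1a2 set without a suffix, above the table median on only 2 arrays, changed by 0.80. The second Col1a1 probe set gave a smaller change, 1.26, and the other Col5a1 sets gave 0.74 and 1.76, against 1.88 on the set used. The direction was the same on each of these probe sets, so the order of size among types I, III and V is not settled.

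Type V chains nucleate type I fibrils and set their diameter. Col5a2 read 4769, 8602 and 6475 in inflamed mucosa, against 1423, 1387 and 1549 in normal mucosa, and rose by 2.13 ± 0.27 (adjusted p = 2.71e-05). Col5a3 read 179.9, 659 and 472 in inflamed mucosa, against 72.2, 82.5 and 81.3 in normal mucosa, and rose by 2.08 ± 0.35 (adjusted p = 2.46e-04). All inflamed arrays were above all normal ones for both, with replicate 2 the highest. Col5a1 rose by 1.88 and Col27a1, a minor fibrillar chain of cartilage, by 0.87.

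The basement membrane class held the collagen with the largest change in the list. Col18a1 read 4079, 5571 and 4509.6 in inflamed mucosa, against 377, 346 and 333 in normal mucosa. The 2 groups were far apart, and the log2 change was 3.68 ± 0.28 (a 12.8-fold rise on this scale, adjusted p = 6.03e-07). Col4a2 read 3791, 6311 and 4690.2 in inflamed mucosa, against 658, 798 and 718 in normal mucosa, and rose by 2.71 ± 0.28 (adjusted p = 5.14e-06). Col4a1, whose product joins with that of Col4a2 in the common type IV trimer, read 6166, 8981 and 7270.2 in inflamed mucosa, against 1405, 1861 and 1451 in normal mucosa. It rose by 2.23 ± 0.24 (adjusted p = 7.04e-06). Col7a1, the anchoring fibril collagen, rose by 0.72 (adjusted p = 4.25e-04). Col15a1 and Col4a5 did not pass, at 0.43 (adjusted p = 0.118) and -0.73 (adjusted p = 0.129).

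The promoters of these 3 genes are printed because Col4a1 and Col4a2 moved together at each stage and Col18a1 moved most. The sequences are RefSeq's for build GRCm38.p6, 250 bases before to 50 after each annotated start, written 5′ to 3′ on the gene's strand. Capitals mark matches, on either strand, to the CCAAT box (CCAAT), the GC box (GGGCGG) and the TATA box (TATAAA).
Col4a1, chr8:11312777-11313076, minus strand: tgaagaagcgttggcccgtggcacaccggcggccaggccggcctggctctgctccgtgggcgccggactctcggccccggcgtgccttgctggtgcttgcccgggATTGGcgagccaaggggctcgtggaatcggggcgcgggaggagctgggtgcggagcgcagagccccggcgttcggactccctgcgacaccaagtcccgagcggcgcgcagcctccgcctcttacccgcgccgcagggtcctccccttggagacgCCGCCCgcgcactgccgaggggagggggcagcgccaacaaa
Col4a2, chr8:11312555-11312854, plus strand: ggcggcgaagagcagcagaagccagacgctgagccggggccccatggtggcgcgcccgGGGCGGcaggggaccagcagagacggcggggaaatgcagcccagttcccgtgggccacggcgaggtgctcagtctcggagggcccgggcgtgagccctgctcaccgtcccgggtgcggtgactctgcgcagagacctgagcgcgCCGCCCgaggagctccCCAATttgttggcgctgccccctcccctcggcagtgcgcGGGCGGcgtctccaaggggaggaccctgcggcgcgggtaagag
Col18a1, first start, chr10:77166481-77166780, minus strand: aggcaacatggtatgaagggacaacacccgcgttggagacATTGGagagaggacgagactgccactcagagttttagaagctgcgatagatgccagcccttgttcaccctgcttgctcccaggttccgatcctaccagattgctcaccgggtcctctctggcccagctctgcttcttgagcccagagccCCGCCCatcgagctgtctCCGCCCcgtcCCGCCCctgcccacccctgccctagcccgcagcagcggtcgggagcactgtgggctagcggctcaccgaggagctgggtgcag
Col18a1, second start, chr10:77113656-77113955, minus strand: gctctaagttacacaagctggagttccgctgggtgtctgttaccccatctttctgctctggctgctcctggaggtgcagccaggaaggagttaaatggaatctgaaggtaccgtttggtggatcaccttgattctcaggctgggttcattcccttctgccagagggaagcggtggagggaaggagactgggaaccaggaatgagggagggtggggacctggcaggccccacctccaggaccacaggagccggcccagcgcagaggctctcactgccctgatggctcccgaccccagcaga
The Col4a1 and Col4a2 windows lie on opposite strands and overlap by 78 bases, so the genes are transcribed away from each other out of 1 shared stretch. Each window holds 1 CCAAT box, with 1 GC box in that of Col4a1 and 3 in that of Col4a2. The first Col18a1 window holds 1 CCAAT box and 3 GC boxes, and in the second none of these motifs was found. None of the 4 windows has a TATA box. Of all 32851 mouse promoters of this length, 37.4% hold a CCAAT box, 35.7% a GC box and 13.6% a TATA box. The table had 26 promoters for 23 of the 28 tested collagens, and 12, 16 and 3 of them hold those motifs in that order. An AP-1 site (TGANTCA) was in 1 of the 26, that of Col6a1, and in 7.81% of all promoters. A match is a string of letters and not a measured binding site. Of the tested genes, Col1a1, Col5a2, Col9a3, Col12a1 and Col14a1 had no promoter entry.

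The other classes were mixed. Col13a1, a transmembrane collagen of cell adhesion sites, read 245, 192 and 154 in inflamed mucosa, against 50.8, 44.3 and 52.2 in normal mucosa, and rose by 1.69 ± 0.20 (adjusted p = 1.33e-05). Col12a1, a FACIT collagen of dense connective tissue, read 294, 1914 and 414 in inflamed mucosa, against 156, 159.9 and 175 in normal mucosa. Its groups did not overlap, but 1 array carried most of the rise of 1.83 ± 0.66 (adjusted p = 0.0345). Without that array the change was 1.03 with an adjusted p of 0.188. Col8a1, a short chain collagen of vessel walls, rose by 1.37, and Col16a1 and Col23a1 by 1.21 each. Of the type VI chains, Col6a1 rose by 1.13 and Col6a2 by 0.99, while Col6a3, at 0.89, did not pass (adjusted p = 0.0787). Col14a1, a FACIT collagen that limits fibril fusion, was the 1 gene called lower. It read 218, 119 and 206 in inflamed mucosa, against 377, 459.9 and 393 in normal mucosa, a change of -1.15 ± 0.30 (adjusted p = 0.0058). Without inflamed replicate 2, 17 of the 28 collagens and 40.1% of all genes were called in this comparison, for the collagens the lowest number when any single array was left out.

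**Figure D2:**
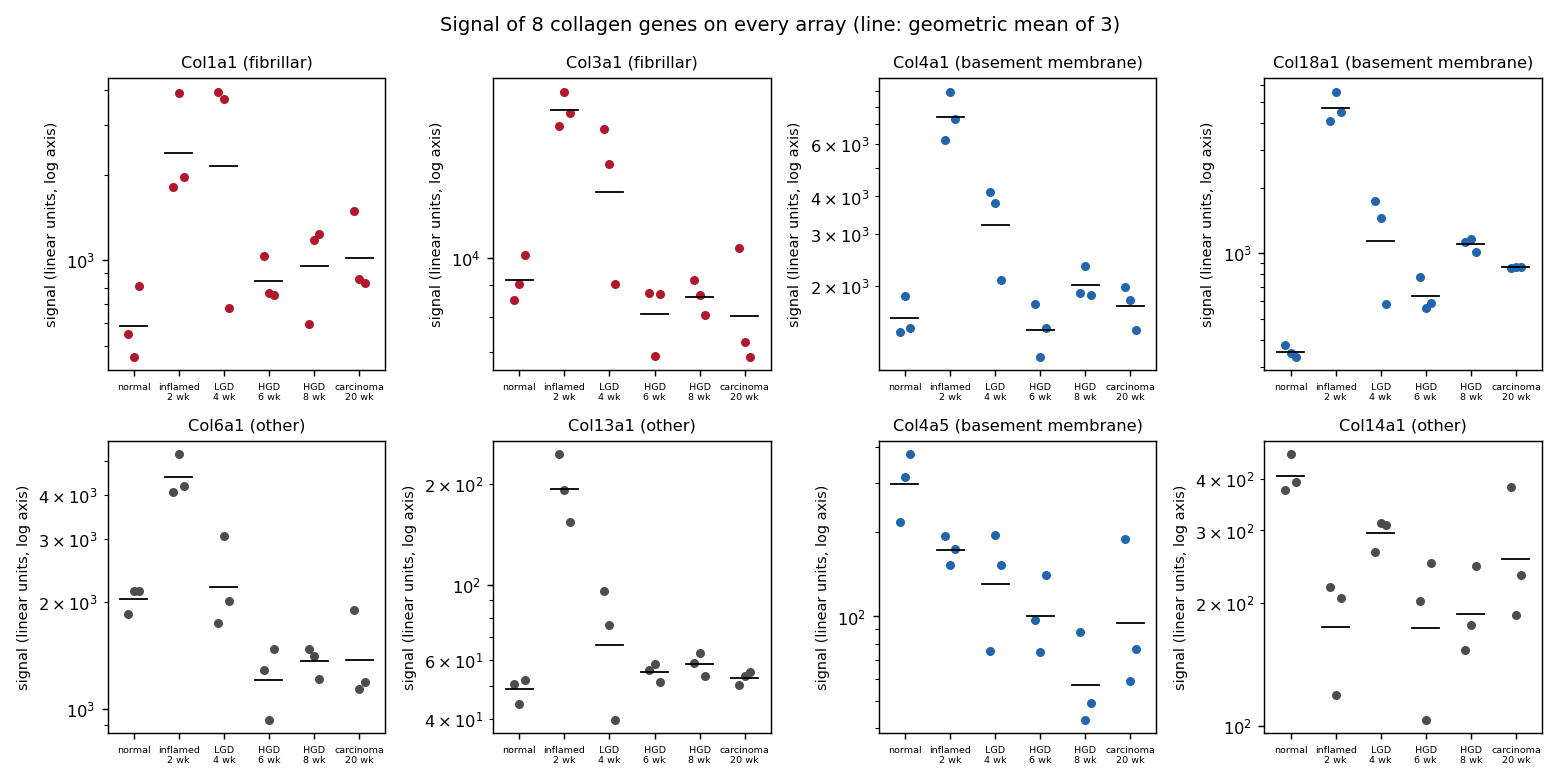
Signal in linear units on a log axis for 8 collagen genes, with 1 point per array and a line at the geometric mean of the 3 arrays of a group; each panel has its own scale. Col18a1 stays above normal mucosa at every stage, Col4a5 below it, and Col6a1 is high in inflamed mucosa and low in HGD at 6 weeks.

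Markers of cells that make collagen moved on the same arrays. The summed signal of 11 fibroblast markers (such as Pdgfra, Dcn and Lum) was 28179 to 41430.3 in inflamed mucosa, against 12543 to 14089 in normal mucosa, and 8 of the 11 were higher. The sum of 10 endothelial markers (such as Pecam1, Cdh5 and Kdr) was 5258 to 7539 in inflamed mucosa, against 1618 to 1852 in normal mucosa, and all 10 were higher. All 12 epithelial markers were lower, and inflamed replicate 2, with the least epithelial signal, had the highest mean collagen change. That mean over 28 genes was 0.85, 1.32 and 1.00 on inflamed replicates 1, 2 and 3. Of 10 smooth muscle markers 0 passed, with a median change of -0.57 by limma, and both tested markers of enteric glia were higher. In pieces of tissue, a change in the number of cells of a type and a change in RNA per cell cannot be told apart, so the part of cell composition in the collagen values was not tested.

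Enzymes that make and crosslink collagen were read from a list of 31 genes, of which 25 were tested. In inflamed mucosa 19 of these were higher and 1 was lower, with a median log2 change of 0.92. Lox, which oxidises lysines for crosslinking, rose by 4.48 (adjusted p = 1.08e-05), its relative Loxl1 by 2.53, and Bmp1, the protease that removes the C-terminal propeptide, by 1.54. Pcolce2, an enhancer of that protease, fell by 0.96 (adjusted p = 0.0408). Of 10 collagen receptor and uptake genes 7 were tested, and 5 were higher and 1 lower. Ddr2, a collagen-sensing receptor kinase of mesenchymal cells, rose by 1.77, the uptake receptor Mrc2 by 1.69, and Itga1, the alpha chain of a collagen-binding integrin, by 1.25. Ddr1, the epithelial relative of Ddr2, fell by 0.58 (adjusted p = 0.0356).

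LGD was set against normal mucosa to ask which changes were present 2 weeks after DSS had been withdrawn. Of the 28 collagens 4 were higher and 0 were lower, where 2.61% of all genes were higher and 3.09% lower. Col18a1, Col4a2, Col4a1 and Col5a2 were the 4, and each had also passed in inflamed mucosa; the comparisons share their normal arrays. The class medians were 0.87 for fibrillar, 0.61 for basement membrane and 0.11 for other genes, against 0.02 over all genes.

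In LGD, Col18a1 read 1753, 1452 and 586, against 333 to 377 in normal mucosa, a change of 1.66 ± 0.28 (adjusted p = 0.0092). Col4a2 read 2074, 2299.8 and 969.8 in LGD, against 658 to 798 in normal mucosa, and changed by 1.19 ± 0.28 (adjusted p = 0.0274). Col4a1 read 4152, 3794 and 2105 in LGD, against 1405 to 1861 in normal mucosa, and changed by 1.04 ± 0.24 (adjusted p = 0.0254). For these genes replicate 3 was the lowest LGD array but still above all normal arrays. Col5a2, at 4423, 3476 and 1703 in LGD against 1387 to 1549 in normal mucosa, changed by 1.03 ± 0.27 (adjusted p = 0.043).

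The type I and III genes did not pass in LGD. Col1a1 read 3932, 3694 and 682 in LGD, against 457 to 813 in normal mucosa, and its log2 change was 1.84 ± 0.54 (adjusted p = 0.0589). Replicates 1 and 2 were as high as the highest inflamed array or nearly so, and replicate 3 lay inside the normal range. Col1a2, at 12341, 10452 and 5352 in LGD against 4562 to 5356 in normal mucosa, and Col3a1, at 16298, 14254 and 9048 in LGD against 8507 to 10084 in normal mucosa, also had replicates 1 and 2 above the normal range and replicate 3 inside it. For Col3a1 every LGD array lay below every inflamed array. Their changes were 0.80 (adjusted p = 0.0773) and 0.48 (adjusted p = 0.139).

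The count in LGD depended on single arrays, replicate 3 among them. LGD replicate 2, which stays in the fit without replicate 3, was the array with the Gapdh 3′ to 5′ log2 ratio of 1.63. The mean change of the 7 fibrillar genes was 1.38, 1.27 and 0.10 on LGD replicates 1, 2 and 3. Without LGD replicate 3, 11 collagens were called, all higher, where 6.43% of all genes were higher: Col1a1 (2.66), Col1a2 (1.16), Col3a1 (0.73), Col5a1, Col5a3, Col13a1 and Col27a1 joined the 4. Without LGD replicate 1, LGD replicate 2 or any 1 normal array, 1 was called, and in each of those fits Col18a1 kept its call. A model of the LGD and normal arrays alone called 0 collagens and 0.389% of all genes by limma, with adjusted p-values of 0.0965 for Col18a1, 0.114 for Col4a1, 0.118 for Col4a2 and 0.149 for Col5a2. Col5a2 lost its call under 14 of 25 alternatives, the replicate block among them. The epithelial marker sums were 49266, 69619 and 77626 on LGD replicates 1, 2 and 3, so the array with the lowest collagens had the most epithelial signal. What part this has in the collagen values was not tested. The fibroblast marker sums were 19986, 17438 and 14553 on these arrays, and the endothelial ones 2919, 2561 and 2039.8. Of the crosslinking and synthesis genes, 3 of 25 were higher in LGD: Lox (1.92), Loxl1 (0.96) and P4hb (0.52), the beta subunit of prolyl 4-hydroxylase. Of the receptors Lair1, an inhibitory collagen receptor of immune cells, rose by 0.72.

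Set directly against inflamed mucosa, LGD had 0 collagens higher and 11 lower, where 19.3% of all genes were higher and 17% lower. Lower were 2 of 7 fibrillar, 4 of 6 basement membrane and 5 of 15 other genes. Col18a1 changed by -2.02 ± 0.28 (adjusted p = 1.07e-04) and Col4a2 by -1.52 ± 0.28 (adjusted p = 7.98e-04). The next were Col13a1 (-1.34), Col8a1 (-1.28), Col5a3 (-1.21), Col4a1 (-1.20), Col23a1 (-1.17), Col5a2 (-1.11), Col6a1 (-1.02) and Col6a2 (-0.84), and Col7a1, at -0.53, had the smallest change of the 11. Col1a1 did not pass, with a change of -0.15 ± 0.54 (adjusted p = 0.849); nor did Col1a2 (-0.28) or Col3a1 (-0.45, adjusted p = 0.0778). Col13a1 illustrates the genes that fell: it read 95.7, 76.3 and 39.7 in LGD, against 245, 192 and 154 in inflamed mucosa. The same contrast held 14 lower members of the 25 synthesis and crosslinking genes, led by Lox (-2.56), Loxl1 (-1.56) and Plod1 (-1.16), a lysyl hydroxylase. Among receptors Ddr2 (-1.58), Mrc2 (-1.02) and Itga1 (-1.02) were lower and Ddr1 (0.81) was higher. Fibroblast markers were lower for 6 of 11 and endothelial markers for 9 of 10, while 11 of 12 epithelial markers were higher.

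**Figure D3:**
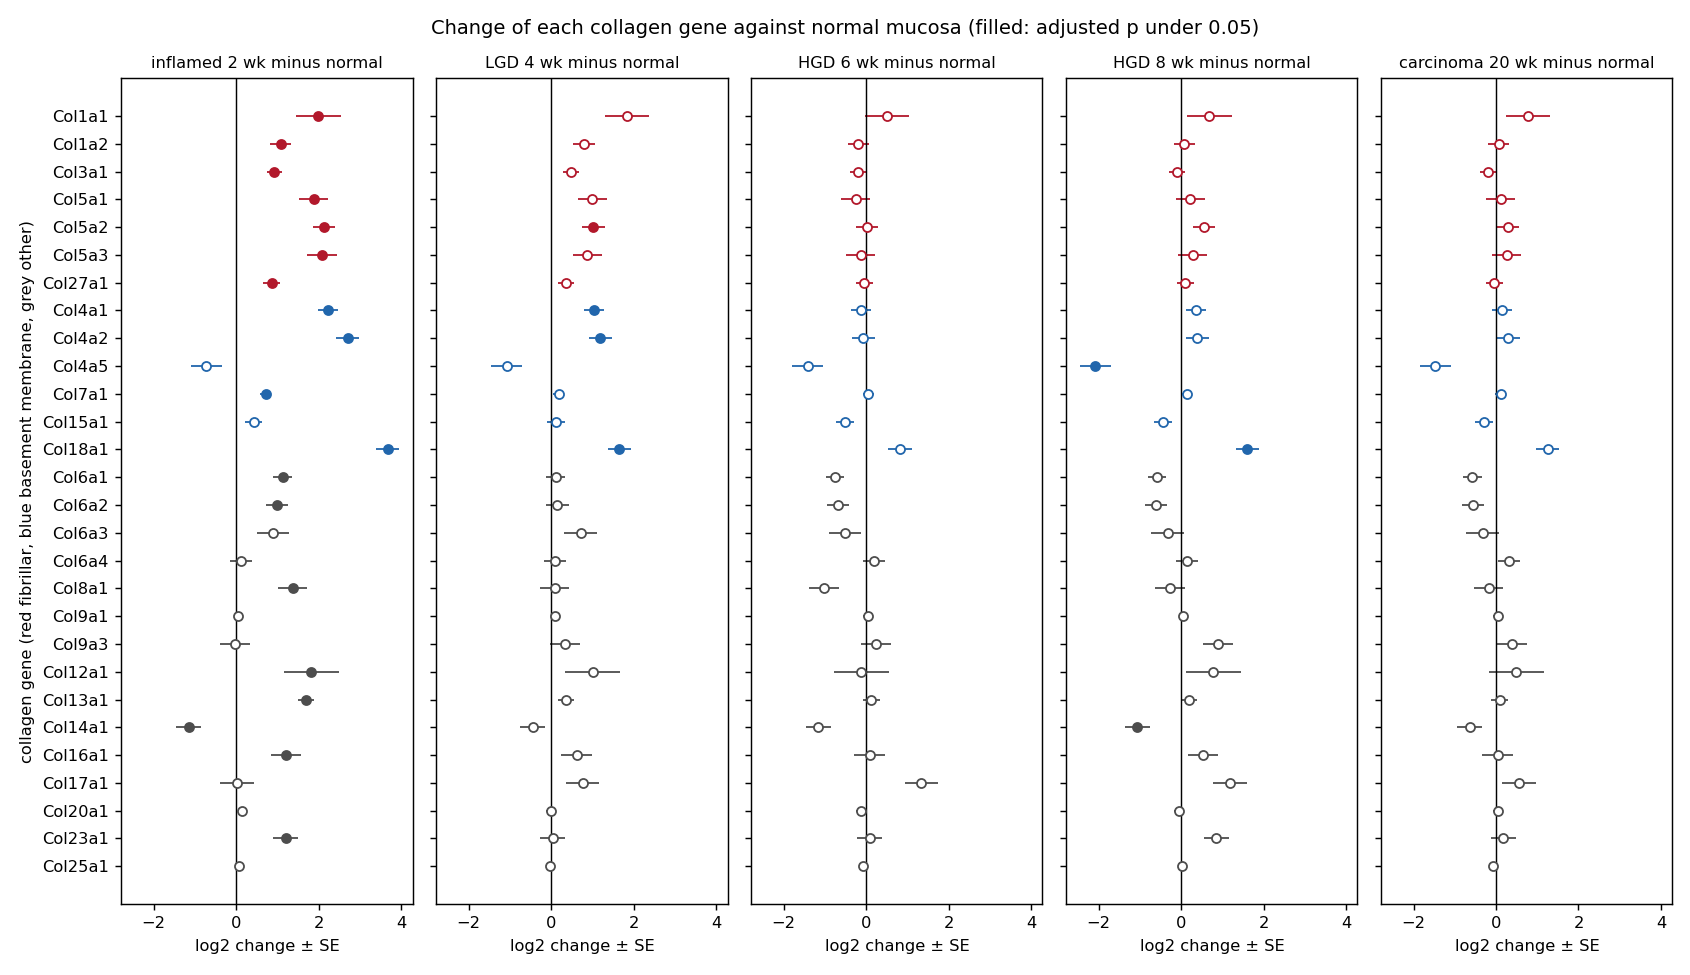
Log2 change of each tested collagen against normal mucosa, with its standard error, in 5 panels from inflamed mucosa to carcinoma; filled points have an adjusted p under 0.05. The number of filled points is 19 in inflamed mucosa, 4 in LGD, 0 in HGD at 6 weeks, 3 in HGD at 8 weeks and 0 in carcinoma.

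In HGD at 6 weeks, 0 of the 28 collagens passed against normal mucosa by limma. In the background 0.622% of all genes were higher and 0.521% lower. The medians were -0.13 for fibrillar, -0.09 for basement membrane and -0.07 for other genes, against 0.01 over all genes. Col1a1 read 1039.7, 769.9 and 753 in HGD at 6 weeks, against 457 to 813 in normal mucosa (log2 change 0.51). Col1a2 read 5059.7, 3355 and 5142 in HGD, against 4562 to 5356 in normal mucosa (-0.19). Col3a1 read 8733, 6897 and 8711 in HGD, against 8507 to 10084 in normal mucosa (-0.19). Each of these fibrillar genes had HGD arrays inside the normal range. Col4a1 read 1740.1, 1159 and 1446 in HGD, against 1405 to 1861 in normal mucosa (-0.13), and Col4a2 read 799.6, 516 and 796 in HGD, against 658 to 798 in normal mucosa (-0.06). None of these 5 genes separated the groups.

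Lack of overlap with normal mucosa at 6 weeks was common among all genes, and some collagens also had none. All 3 arrays lay above all normal arrays for 3 of the 28 and below them for 7, where 17.6% and 17.4% of all genes did so. Those below included the 3 main type VI chains: Col6a1 read 1282, 931 and 1475 in HGD, against 1843, 2151 and 2152 in normal mucosa (log2 change -0.75, adjusted p = 0.11). Col6a2 changed by -0.68 and Col6a3 by -0.51, and the same order of groups held for Col8a1 (-1.02), Col14a1 (-1.15), Col15a1 (-0.52) and Col4a5 (-1.41). Above were Col18a1 (0.82, adjusted p = 0.136), Col9a3 (0.25) and Col17a1 (1.34, adjusted p = 0.111). Smooth muscle marker sums on HGD replicates 1, 2 and 3 at 6 weeks were 25826, 11848 and 34123, against 33533 to 48834 in normal mucosa; replicate 2 had the lowest sum and the lowest Col6a1, Col6a2, Col6a3, Col8a1 and Col14a1. When the model held only the HGD and normal arrays, 8 collagens passed: Col4a5, Col6a1, Col6a2, Col8a1, Col14a1 and Col15a1 were lower and Col17a1 and Col18a1 higher. In that model 5.38% of all genes were lower and 7.3% higher.

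Between HGD at 6 weeks and LGD, 0 of all 12868 genes passed (0%). The median collagen change was -0.69 against 0.01 over all genes. Without LGD replicate 3, 8 collagens passed, all lower in HGD, where 0.311% of all genes were lower and 0.117% higher: Col1a1 (-2.15), Col1a2, Col3a1, Col4a1, Col4a2, Col5a1, Col5a2 and Col18a1 (-1.31).

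HGD with active inflammation, at 8 weeks, was collected 2 days after the third DSS cycle. Against normal mucosa 1 of the 28 collagens was higher and 2 were lower, where 4.83% of all genes were higher and 6.4% lower. Both counts were thus close to the shares over all genes. Col18a1 read 1133, 1168 and 1019 in HGD at 8 weeks, against 377, 346 and 333 in normal mucosa, and rose by 1.61 ± 0.28 (adjusted p = 0.0064). Col4a5, a type IV chain of kidney, smooth muscle and epithelial basement membranes, read 88.2, 42.9 and 49.0 in HGD at 8 weeks, against 217, 315 and 378 in normal mucosa. It fell by 2.08 ± 0.38 on the log2 scale (adjusted p = 0.0071). Its other probe set, above the table median on 10 of 18 arrays, gave a change of -0.92. Col14a1 read 154, 176 and 246 in HGD at 8 weeks, against 377, 459.9 and 393 in normal mucosa, and fell by 1.06 ± 0.30 (adjusted p = 0.0396). The Col14a1 call was lost under 8 of 25 alternatives. Among them were leaving out any 1 normal array and the second probe set, where the change was -0.74.

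The interstitial and type IV trimer genes did not pass at 8 weeks. Col1a1 read 598, 1178 and 1241 in HGD at 8 weeks, against 457 to 813 in normal mucosa (log2 change 0.68, adjusted p = 0.422). Col1a2 read 5099, 5416 and 5561 in HGD, against 4562 to 5356 in normal mucosa (0.08). Col3a1 read 9179, 8690.1 and 8049 in HGD, against 8507 to 10084 in normal mucosa (-0.09). All 3 genes overlapped with normal mucosa. Col4a1 read 1894, 2339 and 1864 in HGD, against 1405 to 1861 in normal mucosa (0.37), and Col4a2 read 879, 1046 and 955 in HGD, against 658 to 798 in normal mucosa (0.40). For both type IV genes every HGD array lay above every normal one, as it did for 9 of the 28 collagens, and for 6 every HGD array lay below. Over all genes those shares were 15.5% and 17.9%.

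Col17a1, the transmembrane collagen of hemidesmosomes in stratified epithelia, showed another course. Its signal was 24.2, 16.5 and 18.1 in normal mucosa, 15.3, 23.2 and 22.0 in inflamed mucosa, 48.1, 66.1 and 25.4 in LGD, and 96.2, 59.8 and 69.8 in HGD at 6 weeks. It was 18, 108 and 111 in HGD at 8 weeks and 22.8, 56.6 and 33.8 in carcinoma. All LGD arrays and all HGD arrays at 6 weeks exceeded all normal arrays, and HGD replicate 1 at 8 weeks did not. Col17a1 passed the F test over the groups (adjusted p = 0.0447), while no single comparison of it with normal mucosa passed. Without HGD replicate 1 at 8 weeks, 6 collagens were called there, with Col17a1 (1.82), Col9a3 (1.28), Col23a1 (1.21) and Col16a1 (0.99) added and Col14a1 lost. In that fit 10.2% of all genes were higher and 6.87% lower.

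Smooth muscle markers were lower for 4 of 10 in HGD at 8 weeks, with sums of 17679.7 to 23477 in HGD and 33533 to 48834 in normal mucosa, and of 11 fibroblast markers 1 was higher and 2 were lower. Col6a1, Col6a2 and Col6a3 again lay below all normal arrays (-0.58, -0.60 and -0.32; none passed). Of the synthesis genes 1 of 25 was higher, Ppib (0.46), a prolyl isomerase of the endoplasmic reticulum, and of the receptors 1 of 7, Lair1 (0.84). Between HGD at 8 and at 6 weeks, 0 of all genes passed (0%).

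In carcinoma at 20 weeks, 0 of the 28 collagens passed against normal mucosa by limma. Of all genes 0.326% were higher and 0.575% lower. The medians were 0.11 for fibrillar, 0.13 for basement membrane and 0.04 for other genes, against -0.02 over all genes. The smallest adjusted p was that of Col18a1, which read 853, 866 and 864 in carcinoma, against 377, 346 and 333 in normal mucosa (log2 change 1.26 ± 0.28, adjusted p = 0.0517). Its carcinoma arrays were close together (SD 0.01) and far from the normal ones. Under quantile normalization its adjusted p was 0.0495, without the intensity trend 0.0493, and in a model of the carcinoma and normal arrays alone 0.0036, where 2.35% of all genes were higher and 1.75% lower. Of 25 alternatives 7 called it and 18 did not, with adjusted p-values from 0.0014 to 0.222.

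Col4a5 read 189.5, 59.0 and 76.4 in carcinoma, against 217, 315 and 378 in normal mucosa, with a log2 change of -1.47 ± 0.38 (adjusted p = 0.0732). Col1a1 read 1488, 863 and 832 in carcinoma, against 457 to 813 in normal mucosa, with all 3 above and a change of 0.78 ± 0.54 (adjusted p = 0.469). Col1a2 read 6377, 4399.8 and 5262 in carcinoma, against 4562 to 5356 in normal mucosa (0.06). Both this gene and Col3a1 overlapped with normal mucosa; Col3a1 read 10370.1, 7256 and 6864 in carcinoma, against 8507 to 10084 in normal mucosa (-0.20). Col4a1 read 1993, 1802 and 1423 in carcinoma, against 1405 to 1861 in normal mucosa (0.14). Col4a2 read 1069, 871 and 769 in carcinoma, against 658 to 798 in normal mucosa (0.30). Carcinoma replicate 1 was the highest of its group for 19 of 28 collagens, and its smooth muscle sum was 42676, against 21383 and 24954 on the other carcinoma arrays. Its epithelial marker sum was 63495, against 58604 and 54502 on the others. Here the array with the highest collagens had the most epithelial signal, unlike in inflamed mucosa and LGD. All carcinoma arrays lay above all normal arrays for 5 collagens and below for 1, Col4a5, where 14.4% and 17.1% of all genes did so. Neither the synthesis nor the receptor list had a called member in carcinoma or in HGD at 6 weeks. Between carcinoma and HGD at 8 weeks 0 of all genes passed (0%).

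The mean change from normal mucosa over the genes of a class was high in inflamed mucosa and between -0.46 and 0.45 on the HGD arrays for each class. For the 7 fibrillar genes it was 1.15, 2.03 and 1.52 on the inflamed arrays, 0.10, -0.24 and 0.03 in HGD at 6 weeks, 0.14, 0.35 and 0.30 in HGD at 8 weeks and 0.51, -0.03 and 0.07 in carcinoma. For the 6 basement membrane genes it was 1.30, 1.76 and 1.45 in inflamed mucosa, 0.66, 0.81 and 0.08 in LGD, -0.09, -0.46 and -0.08 in HGD at 6 weeks, 0.05, -0.01 and -0.04 in HGD at 8 weeks and 0.26, -0.11 and -0.13 in carcinoma. The HGD means at 8 weeks hold Col18a1 and Col4a5, which moved in opposite directions. For the 15 others it was 0.52, 0.81 and 0.58 in inflamed mucosa, 0.38, 0.46 and -0.05 in LGD, -0.02, -0.39 and -0.05 in HGD at 6 weeks, -0.19, 0.45 and 0.10 in HGD at 8 weeks and 0.11, -0.07 and -0.08 in carcinoma. No difference between classes was tested. These means are descriptions, since the genes of a class are not replicates. Col4a5 and Col18a1 were the only tested collagens whose arrays lay wholly on 1 side of the normal arrays at every stage from inflamed mucosa to carcinoma. The stages share their normal arrays, and the share of all genes that did so was not counted.

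**Figure D4:**
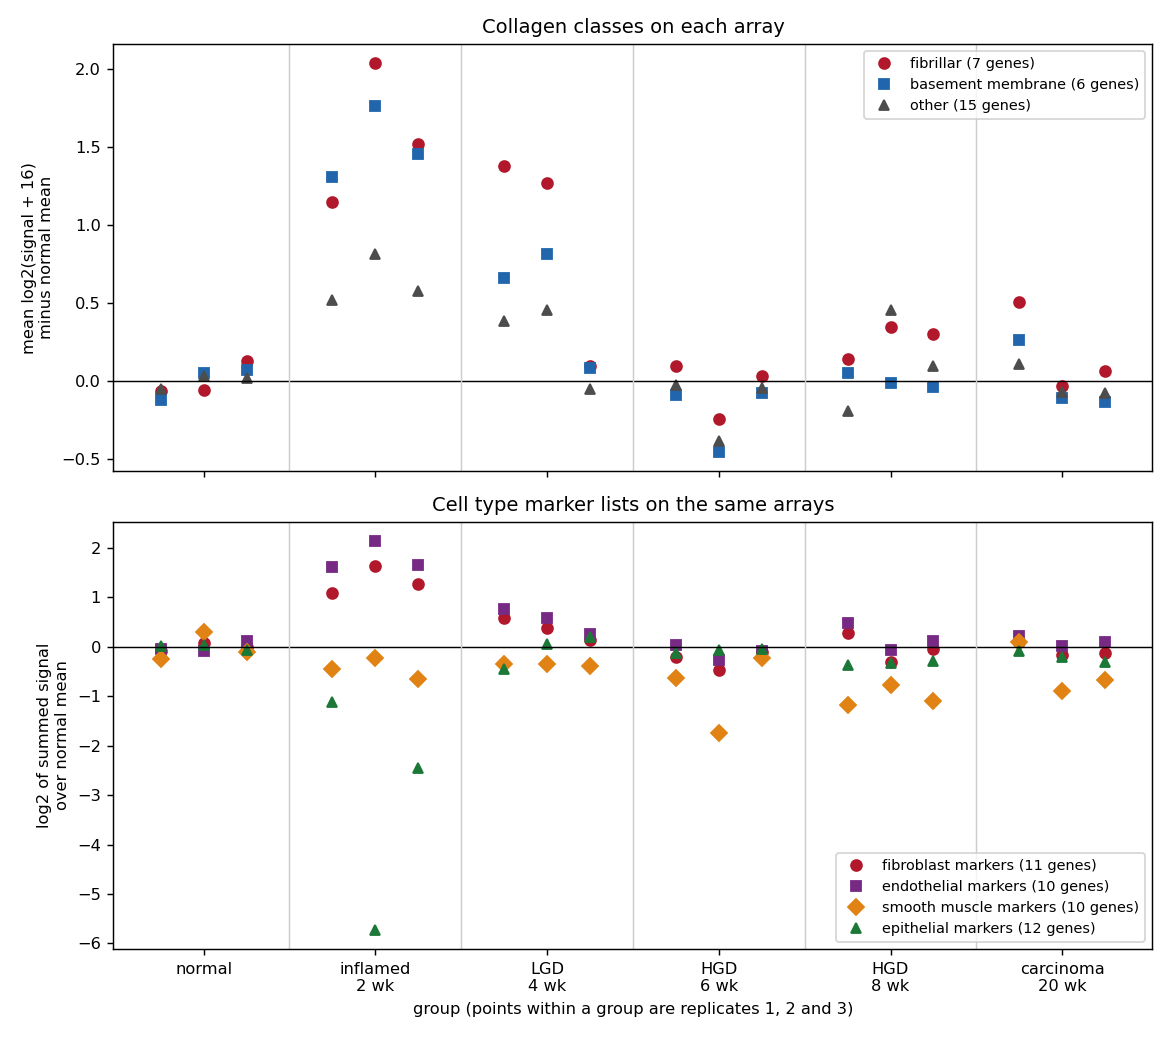
Upper panel: mean log2(signal + 16) minus the normal mean for each collagen class, 1 point per array. Lower panel: log2 of the summed signal of 4 cell type marker lists over the mean normal sum, on the same arrays. Fibroblast and endothelial sums are high where collagens are high in inflamed mucosa, the epithelial sum is lowest on inflamed replicate 2, and the smooth muscle sum is lowest on HGD replicate 2 at 6 weeks.

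Other probe sets of the called collagens were compared in direction. In inflamed mucosa 20 of 21 further probe sets changed in the same direction as the one used, and all 15 of those bright enough to pass the filter did. The counts were 3 of 3 in LGD, 4 of 4 in HGD at 8 weeks and 9 of 9 between LGD and inflamed mucosa.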

How the data were processed

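RNA of 18 colorectal samples was hybridised to Affymetrix mouse arrays, 1 per sample, in 6 groups of 3. The deposited values are intensity, a linear signal per probe set. MAS5 is named, per the submitters' processing notes, with no role or version. Array medians lay close together, so no scaling was added. Of 45101 probe sets, 34945 are annotated to 1 gene and were used; 932 with several genes, 9160 with none and 64 controls were left out. The pseudocount of 16 shrinks changes of dim genes.

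limma 3.58.1 (R 4.3.3) fitted 6 group means to all 18 arrays (lmFit, eBayes with an intensity trend, 12 residual degrees of freedom). P-values are two-sided and Benjamini-Hochberg adjusted over 12868 genes in each comparison, with a threshold of 0.05. The fit was tested on simulated data, and the number of arrays limits precision. The members, lists and tests were chosen with earlier results of these data known.

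By rule, values on every array are given, per comparison with normal mucosa, for the 2 called genes of each class with the largest change and for Col1a1, Col1a2, Col3a1, Col4a1 and Col4a2. The 3 called genes with the largest change are named per pathway list; lower ones among higher ones were added after their values were seen. So were the array values of Col14a1 in inflamed mucosa, Col6a1 and Col17a1, Col18a1 and Col4a5 in carcinoma, and Col13a1 between LGD and inflamed mucosa. The alternatives were a pseudocount of 64, no filter, quantile normalization, 2-group models, no trend, probe sets without a suffix, a replicate block and leaving out each array. Replicate numbers were not taken to pair samples. The correlations of deviations ran from -0.46 to 0.33 over 45 same-numbered pairs and from -0.39 to 0.38 over 90 differently numbered pairs.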

Additional observations from a re-analysis of the deposited data

Results flagged for a closer look

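The 11 collagens that were lower in LGD than in inflamed mucosa were set apart because the effects of these stages, each measured against the same normal arrays, differed by a test of the difference itself. Their log2 changes were -2.02 for Col18a1, -1.52 for Col4a2, -1.34 for Col13a1, -1.28 for Col8a1, -1.21 for Col5a3, -1.20 for Col4a1, -1.17 for Col23a1, -1.11 for Col5a2, -1.02 for Col6a1, -0.84 for Col6a2 and -0.53 for Col7a1.

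For 3 genes every inflamed array lay above all normal arrays while every HGD array lay below them, at 6 and at 8 weeks for Col6a1 and Col6a2 and at 6 weeks for Col8a1. At 8 weeks the Col8a1 arrays overlapped with the normal ones. Over all genes, every HGD array lay below all normal arrays for 17.4% at 6 weeks and 17.9% at 8 weeks. The share of genes that also lay above them in inflamed mucosa was not counted. In HGD at 6 weeks the log2 change from normal mucosa was -0.75 for Col6a1, -0.68 for Col6a2 and -1.02 for Col8a1. In HGD at 8 weeks it was -0.58 for Col6a1 and -0.60 for Col6a2. The difference between HGD and inflamed mucosa was not tested, and none of these changes from normal mucosa passed the threshold in the model of all arrays. In models of the HGD and normal arrays alone all 5 passed, with adjusted p-values by limma of 0.0255 (6 weeks) and 0.0464 (8 weeks) for Col6a1, 0.0448 (6 weeks) and 0.0496 (8 weeks) for Col6a2 and 0.0499 (6 weeks) for Col8a1.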

How the results depend on the processing

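No called collagen changed direction under any alternative that gave it a value. In inflamed mucosa, 17 of the 19 called genes kept their call under each of these; Col12a1 and Col16a1 lost it without inflamed replicate 2, and Col12a1 also without any 1 normal array. In models of only the 2 groups compared, the number called was 0 for LGD against normal mucosa (4 in the model of all arrays), 8 for HGD at 6 weeks (0), 5 for HGD at 8 weeks (3), 1 for carcinoma (0) and 7 for LGD against inflamed mucosa (11). In the same order these models called 0.389%, 12.7%, 5.92%, 4.1% and 24.6% of all genes. For inflamed mucosa the 2-group model called 20 (19 in the model of all arrays), with Col4a5 lower (adjusted p = 0.0241 by limma). The share of all genes in that fit was not counted. With no filter on low signal the number called was 1 for HGD at 6 weeks, Col8a2, where 0.588% of all genes were called. For carcinoma it was 1, Col18a1, with quantile normalization, without an intensity trend and with probe sets that have no suffix. The shares of all genes called in those fits were not counted. A 2-group model has fewer samples than the model of all arrays. The cause of the changes in number, in these models and in the other fits, was not tested.

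Leaving out single arrays gave 17 to 21 calls for inflamed mucosa, 1 to 11 for LGD, 0 to 2 for HGD at 6 weeks, 2 to 6 for HGD at 8 weeks, 0 to 2 for carcinoma, 8 to 13 for LGD against inflamed mucosa and 0 to 8 for HGD at 6 weeks against LGD. The other 2 comparisons between stages stayed at 0, and the F test gave 17 to 23. The share of all genes called was counted for some of these fits only. Without inflamed replicate 2 it was 40.1% in inflamed mucosa. Without LGD replicate 3 it was 13.9% in LGD and 0.427% for HGD at 6 weeks against LGD. Without HGD replicate 1 at 8 weeks it was 17.1% in HGD at 8 weeks. The remaining numbers have no such share beside them. In LGD the 11 appeared without LGD replicate 3, and the 1 without LGD replicate 1, LGD replicate 2 or any 1 normal array. The 6 at 8 weeks and the 2 at 6 weeks (Col4a5 and Col17a1) appeared without HGD replicate 1 at 8 weeks, and single calls at 6 weeks without LGD replicate 3 (Col18a1) or carcinoma replicate 1 (Col4a5). In carcinoma, 2 (Col18a1 and Col4a5) appeared without LGD replicate 1 or HGD replicate 1 at 8 weeks, and 1 without LGD replicate 3 (Col18a1) or carcinoma replicate 1 (Col4a5). Under every left-out array 1 of the 4 LGD calls was kept, 2 of the 3 in HGD at 8 weeks and 8 of the 11 between LGD and inflamed mucosa.

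Samples with the same replicate number did not deviate together more than others did. Of 45 correlations between same-numbered samples 11 exceeded 0.1, against 26 of 90 between differently numbered samples. The medians were -0.001 and -0.003. With the number as a replicate block, 19 collagens were called in inflamed mucosa, 3 in LGD, 0 in HGD at 6 weeks, 3 in HGD at 8 weeks, 0 in carcinoma, 11 between LGD and inflamed mucosa, 0 in the other comparisons between stages and 19 by the F test. The shares of all genes called with this block were not counted.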

Other observations

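Of the 14 collagens that did not pass the filter on low signal, 2 were called in inflamed mucosa when all 18193 genes on the array were tested with limma, a fit in which 35.4% of all genes were called. Col8a2, the partner of Col8a1 among the short chain collagens, read 9.88, 12.2 and 10.6 in inflamed mucosa, against 17.8, 23.3 and 21.0 in normal mucosa. It changed by -0.45 ± 0.08 (SE, adjusted p = 6.86e-04), whereas Col8a1 changed by 1.37 in the same comparison. Col8a2 also changed by -0.41 in HGD at 6 weeks (adjusted p = 0.0449) and by -0.39 in HGD at 8 weeks (adjusted p = 0.0168), where 0.588% and 6.68% of all genes were called. Col22a1, a FACIT collagen, read 32.3, 41.6 and 36.1 in inflamed mucosa, against 31.2, 30.9 and 24.8 in normal mucosa, and changed by 0.23 ± 0.08 (adjusted p = 0.0331). Every array of both genes lay below the table median of 56.6.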
